A study of Mus musculus with 6 samples.

Results

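The T cell receptor beta locus was followed by gene segment in mouse CD4+ T cells cultured with or without tunicamycin. Its members were all rows of the deposited tables whose mouse symbol begins with Trbv, Trbd, Trbj or Trbc, the variable (V), diversity (D), joining (J) and constant (C) segments. They made up 43 of 13685 rows. Of these 43 rows, 26 were V, 2 were D, 14 were J and 1 was a C gene, Trbc2. Values above 0 in at least 1 library were found for 35 rows, 22 V, 12 J and Trbc2. After the filter on low counts 22 remained for the test across genes, 21 V genes and Trbc2. In the GENCODE M21 annotation of the mouse genome build GRCm38 the locus has 53 segments, of which 14 are annotated as pseudogenes. The 10 without a row, Trbc1 and 9 V segments (Trbv7, Trbv8, Trbv11, Trbv21, Trbv22, Trbv25, Trbv26, Trbv27 and Trbv28), were not analysed here. Of these V segments Trbv21 and Trbv26 are not annotated as pseudogenes, so functional V genes are also absent from the V shares below.

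The cells came from wild-type C57BL/6 mice, from spleen and mesenteric lymph nodes, and were the CD25-negative part of the CD4+ T cells, that is conventional cells with regulatory T cells set aside. They were cultured for 4 h at 1000000 cells per well. The vehicle group held 3 libraries, titled as untreated while the protocol states that controls received vehicle, and the tunicamycin group held 3 libraries treated with 0.15 µg/mL. Tunicamycin blocks the first step of N-linked protein glycosylation and is widely used to disturb protein folding in the endoplasmic reticulum. The input of each messenger RNA library was 200 ng of total RNA, and reads were paired at 150 bp. Libraries within a group are described as technical replicates, with no age, sex or number of mice given, so p-values here measure only the spread between these libraries.

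During T cell development in the thymus, recombination joins 1 V, 1 D and 1 J segment of this locus into a single exon, which is spliced to a constant gene. Each mature alpha-beta T cell therefore carries, as a rule, a single productive beta chain, and the V segments read in bulk RNA reflect which V genes the cells of the population use. In bulk RNA, fewer cells that use a V gene and less receptor RNA per cell cannot be told apart. The D segment is a few bases long and the J segment is short, so most of the receptor-specific sequence of a transcript lies in its V part.

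Depth, as summed estimated counts, ran from 7412151 to 9495725 over the vehicle libraries and from 10584276 to 11211270 over the tunicamycin libraries, so every tunicamycin library was deeper. Of the CD4+ T cell markers 5 of 9 had a row (Cd3d, Cd3e, Cd5, Cd28 and Il7r, with Cd4 itself not analysed here), and their summed level was 1962 to 2177 TPM in vehicle and 1963 to 2119 TPM in tunicamycin. TPM is a level scaled for transcript length and depth, so that all transcripts of a library add up to the same total. The CD8 marker Cd8b1 was at 9.47 to 10.8 and 10.5 to 11.9 TPM, and Il2ra, which encodes CD25, at 6.87 to 8.41 and 7.74 to 14.1 TPM. Summed plasma cell markers (3 of 3) ran from 21.4 to 183 and from 26.1 to 191 TPM, highest in both libraries numbered 2 and lowest in both numbered 3. The mitochondrial gene Nnt, of which the C57BL/6J substrain is known to carry a deletion, was at 0 counts in every vehicle library and at 143, 423 and 375 counts in tunicamycin replicates 1, 2 and 3. Rps12l1 was likewise at 0 counts in every vehicle library, and at 1878, 2688 and 2550 counts in these tunicamycin libraries. A difference between the mice behind the groups and an effect of the treatment cannot be told apart on this basis.

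The locus spans chr6:40891229-41558452 in GRCm38, 667 kb. The V segments lie upstream of the D, J and C segments on the plus strand, except Trbv31, which lies downstream of Trbc2 on the minus strand (chr6:41557691-41558452). A family of 3 closely related V genes, Trbv13-1, Trbv13-2 and Trbv13-3, known in older nomenclature as Tcrb-V8.3, Tcrb-V8.2 and Tcrb-V8.1, had the highest shares of all. They lie within a short stretch at chr6:41116007-41116468, chr6:41121396-41121832 and chr6:41130147-41130585. The last 280 bases of each V segment are shown because reads can be told apart among these related genes only where their bases differ. Capitals mark the bases that are not the same in all 3, which fell in 49 of these 280 positions and in 65 of the 340 columns of the whole aligned segments.
Trbv13-1: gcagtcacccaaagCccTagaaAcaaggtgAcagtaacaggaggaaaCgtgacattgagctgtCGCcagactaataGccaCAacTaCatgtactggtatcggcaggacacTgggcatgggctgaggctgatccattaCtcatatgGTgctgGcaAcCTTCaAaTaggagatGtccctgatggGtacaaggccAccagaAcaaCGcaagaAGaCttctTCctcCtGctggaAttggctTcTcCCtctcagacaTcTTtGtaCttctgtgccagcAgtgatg
Trbv13-2: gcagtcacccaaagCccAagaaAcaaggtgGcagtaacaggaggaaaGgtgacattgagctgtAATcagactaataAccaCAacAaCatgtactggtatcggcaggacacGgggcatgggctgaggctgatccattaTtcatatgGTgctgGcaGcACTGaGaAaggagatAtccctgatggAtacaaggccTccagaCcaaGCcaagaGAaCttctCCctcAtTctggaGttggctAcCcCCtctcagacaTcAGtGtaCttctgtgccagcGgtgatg
Trbv13-3: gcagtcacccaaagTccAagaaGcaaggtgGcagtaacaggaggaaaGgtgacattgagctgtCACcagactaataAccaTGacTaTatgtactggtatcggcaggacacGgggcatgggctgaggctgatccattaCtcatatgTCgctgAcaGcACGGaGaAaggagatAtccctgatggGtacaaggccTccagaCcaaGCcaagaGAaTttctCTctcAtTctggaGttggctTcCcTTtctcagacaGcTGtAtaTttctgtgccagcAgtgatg
Over their whole length Trbv13-1 and Trbv13-2 were 88.0% identical, Trbv13-1 and Trbv13-3 85.6%, and Trbv13-2 and Trbv13-3 90.6%. The differences are spread along the whole length, so that the first pair shared 0 stretches of 31 bases, the second 4 and the third 31. Only 6 annotated V segments, these 3 and Trbv12-1, Trbv12-2 and Trbv12-3, shared any stretch of 31 bases with another V segment of the locus.

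The last 51 bases of the next 6 V genes by share are shown because the D and J segments are joined to this end, which reaches into the loop of the receptor that contacts the peptide. Capitals mark TGTGC, the codon of the conserved cysteine before this loop and the start of the next codon.
Trbv3: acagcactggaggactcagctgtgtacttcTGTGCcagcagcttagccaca
Trbv15: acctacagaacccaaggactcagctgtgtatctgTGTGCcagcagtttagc
Trbv31: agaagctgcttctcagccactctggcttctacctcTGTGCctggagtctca
Trbv5: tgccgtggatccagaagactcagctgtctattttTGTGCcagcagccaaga
Trbv19: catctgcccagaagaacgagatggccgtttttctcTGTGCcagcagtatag
Trbv20: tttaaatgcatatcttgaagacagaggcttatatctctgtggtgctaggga
In GRCm38 these genes lie on the plus strand, Trbv3 at chr6:41048290-41048828, Trbv15 at chr6:41141188-41141658, Trbv5 at chr6:41062332-41062803, Trbv19 at chr6:41178375-41179048 and Trbv20 at chr6:41188273-41188977, apart from Trbv31 given above. Of the 35 annotated V segments 26 (74.3%) held TGTGC within their last 30 bases, and 0 held its reverse complement GCACA there. Trbv20 is printed without capitals because these letters were not in its window.

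Trbv13-2 was the most abundant V gene in every library. Its share of the summed TPM of all V rows was 18.7, 18.5 and 18.2% in vehicle replicates 1, 2 and 3 and 18.8, 20.1 and 18.0% in tunicamycin replicates 1, 2 and 3. The groups overlapped, with 18.5% ± 0.261 for vehicle and 19.0% ± 1.03 for tunicamycin (SD, n = 3 each; exact 2-sided permutation test, p = 0.6). With 3 libraries against 3 this test cannot go below 0.1, so no share could pass 0.05. Trbv13-3 was at 7.76, 8.56 and 8.33% in vehicle and at 7.71, 8.08 and 8.17% in tunicamycin, groups that also overlapped. These levels put Trbv13-2 at more than the 2 other members of its family together.

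Trbv13-1 was the V gene of the upper range whose groups did not overlap. Its share was 8.31, 8.53 and 8.92% in vehicle replicates 1, 2 and 3 and 7.58, 7.30 and 7.34% in tunicamycin replicates 1, 2 and 3. Each tunicamycin library lay below each vehicle library, at 8.58% ± 0.310 against 7.41% ± 0.149 (SD, n = 3 each; exact permutation test, p = 0.1, the smallest possible). By shares of estimated counts the values were 8.36% ± 0.398 and 7.28% ± 0.161, again without overlap. The 3 Trbv13 genes together took 35.3% ± 0.446 of the V level in vehicle against 34.4% ± 0.979 after tunicamycin, with overlapping groups (SD, n = 3 each; exact permutation test, p = 0.3).

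The next V genes had mean shares of 4.87 to 6.85%. Trbv3 was at 6.20, 7.59 and 6.56% in vehicle and 6.19, 7.69 and 6.90% in tunicamycin, highest in both libraries numbered 2. Trbv15 was at 6.28, 6.11 and 6.29% in vehicle and 5.57, 6.24 and 6.98% in tunicamycin, where its spread was wider. Trbv31, the inverted gene, was at 7.09, 6.25 and 5.34% in vehicle and 5.94, 5.59 and 5.90% in tunicamycin. Its vehicle values enclosed all those of tunicamycin. Trbv5 was at 5.65, 5.56 and 6.28% in vehicle and 6.29, 6.13 and 5.14% in tunicamycin. Trbv19 was at 4.60, 4.43 and 5.44% in vehicle and 5.14, 5.41 and 5.02% in tunicamycin. The groups overlapped for both.

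Trbv20 was at 4.24, 3.92 and 5.34% in vehicle and at 5.54, 4.50 and 6.22% in tunicamycin. It was higher in the tunicamycin library of each replicate number, but the groups overlapped (exact permutation test, p = 0.2). In shares of estimated counts Trbv20 was at 2.86% ± 0.336 and 2.98% ± 0.431 (SD, n = 3 each), lower in tunicamycin replicate 2 than in vehicle replicate 2, and its edgeR log2 fold change was 0.01. Trbv16 was at 4.97, 4.48 and 4.83% in vehicle and at 4.66, 5.28 and 5.002% in tunicamycin. Neighbours in this order, from Trbv13-3 with a mean of 8.10% over the 6 libraries down to Trbv16 with 4.87%, had ranges over the libraries that overlapped. Trbv13-2, with a lowest value of 18.0%, stood above the highest value of any other V gene, the 8.92% of Trbv13-1.

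**Figure D1:**
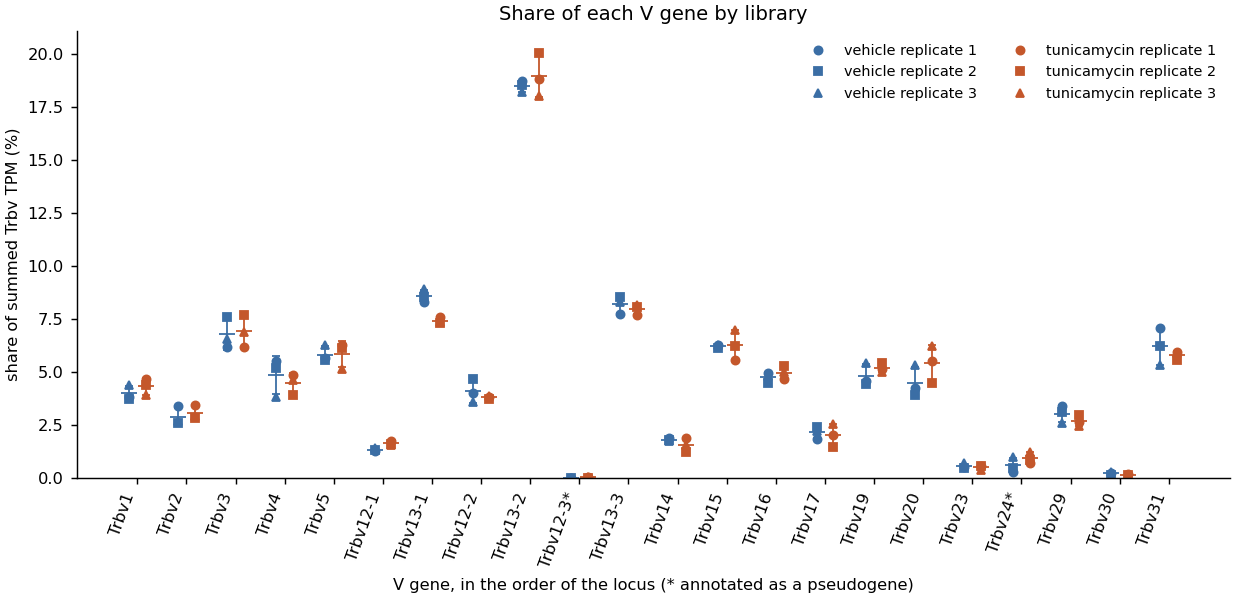
Share of each V gene in the summed Trbv TPM (vertical axis, percent) in the order of the genes along the locus, with a point per library, a bar at the mean and whiskers of 1 SD (n = 3 per group). Trbv13-2 stands at 18.0 to 20.1% in all 6 libraries, and Trbv13-1 is the gene of higher share whose vehicle points (8.31 to 8.92%) all lie above its tunicamycin points (7.30 to 7.58%).

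Of the 22 V genes with a value above 0, 8 had a mean share of at least 5% and 4 had one under 1%. The 5 highest V genes held 48.3% ± 1.03 of the V level in vehicle and 47.6% ± 1.76 in tunicamycin, and the 10 highest held 74.4% ± 0.951 and 74.8% ± 1.43 (SD, n = 3 each). The effective number of V genes is the number of equally used genes that would give the same Shannon entropy of shares. It was 15.6, 15.5 and 15.9 in vehicle and 15.9, 15.3 and 15.9 in tunicamycin, 15.7 ± 0.176 against 15.7 ± 0.368 (SD, n = 3 each; exact permutation test, p = 0.8). The spread of use over V genes thus differed between the groups by less than between libraries of a group.

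The lower shares belonged to Trbv4 with a mean of 4.66% over the 6 libraries, Trbv1 with 4.16%, Trbv12-2 with 3.95%, Trbv2 with 2.97%, Trbv29 with 2.87%, Trbv17 with 2.09%, Trbv14 with 1.68% and Trbv12-1 with 1.49%. Trbv12-1 was at 1.26, 1.34 and 1.43% in vehicle and at 1.72, 1.62 and 1.58% in tunicamycin. Each tunicamycin library lay above each vehicle library, at 1.34% ± 0.0865 against 1.64% ± 0.0759 (SD, n = 3 each; exact permutation test, p = 0.1, the smallest possible). Trbv12-2, of the same family, was at 3.99, 4.67 and 3.60% in vehicle and 3.82, 3.71 and 3.89% in tunicamycin, and overlapped.

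The last bases of the Trbv12 genes and of Trbv24 are shown because GENCODE annotates Trbv12-3 and Trbv24 as pseudogenes while Trbv12-1 and Trbv12-2 are not. RefSeq lists Trbv12-3 and also Trbv29 as pseudogenes, and Trbv24 as a V segment. Capitals mark TGTGC and, in Trbv24, an in-frame stop codon. Trbv12-3 also has an in-frame stop codon, TGA, 84 bases before TGTGC and so outside the bases shown.
Trbv12-1: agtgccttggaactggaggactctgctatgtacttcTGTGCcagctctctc
Trbv12-2: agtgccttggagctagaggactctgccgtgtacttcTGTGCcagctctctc
Trbv12-3: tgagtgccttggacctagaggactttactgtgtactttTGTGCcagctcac
Trbv24: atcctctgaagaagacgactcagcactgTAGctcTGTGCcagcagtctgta
On the plus strand of GRCm38 Trbv12-1 at chr6:41113550-41114067, Trbv12-2 at chr6:41118851-41119364, Trbv12-3 at chr6:41127592-41128076 and Trbv24 at chr6:41218091-41218557 follow in this order. In Trbv24 the codon TAG lies 6 bases before TGTGC in the reference genome, which is that of C57BL/6J mice. Trbv24 had 24, 38 and 93 estimated counts in vehicle and 79, 93 and 138 in tunicamycin. Its share was 0.306, 0.488 and 0.982% in vehicle and 0.696, 0.851 and 1.23% in tunicamycin. It was higher in the tunicamycin library of each number, with overlapping groups (exact permutation test, p = 0.3). Trbv12-3 was at 0 counts in each vehicle library and at 4, 1 and 7 counts in tunicamycin replicates 1, 2 and 3, so few that no fold is given. The other pseudogenes with a V row, Trbv6, Trbv9, Trbv10 and Trbv18, were at 0 in all 6 libraries. Of the annotated functional V genes with a row, Trbv23 and Trbv30 had the lowest mean shares, 0.540% and 0.193%.

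Of the 22 V shares compared, 3 had groups that did not overlap (13.6%), Trbv13-1 lower in tunicamycin and Trbv12-1 and Trbv12-3 higher. Over all 3613 genes tested, 19.8% had groups that did not overlap when their TPM were likewise divided by the summed V level. Among the 21 V genes that passed the filter on low counts, 2 did not overlap (9.52%). Each V share is a part of the sum it is divided by, while the TPM of other genes is not. These rates, and those of all genes given below, are therefore not like measures, and no conclusion is drawn from them. Compared within replicate numbers, 8 of the 22 shares differed in the same direction in 3 of 3 pairs (exact sign-flip test, p = 0.25 for each, the smallest it can give), against 41.5% of all genes tested. These were Trbv2, Trbv12-1, Trbv12-3, Trbv20 and Trbv24, which were higher in tunicamycin, and Trbv13-1, Trbv13-3 and Trbv29, which were lower. In shares of counts the number was also 8, against 34.5% of all genes, with Trbv3 in place of Trbv20. Without vehicle replicate 3 the number of shares without overlap was 11, against 32.2% of all genes for the same 5 libraries. It was 5 without vehicle replicate 1, tunicamycin replicate 1 or tunicamycin replicate 3, against 28.7, 37.5 and 26.9% of all genes.

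The order of V genes depended in part on whether shares were taken from TPM or from estimated counts. Trbv13-2 was first by both, with a mean of 18.7% of TPM and 19.1% of counts. Trbv20 took 4.96% of the V TPM and 2.92% of the V counts, and moved from the rank of 9 to 14. Trbv2 took 2.97% of TPM and 5.32% of counts, and moved from 14 to 10. Trbv19 took 5.01% of TPM and 7.09% of counts, and moved from 8 to 5. The spliced V models ran from 334 bases, Trbv13-1 and Trbv31, to 566 bases, Trbv19, and the TPM that 1 estimated count added ran from 0.0640 to 0.281 over V genes and libraries. This TPM per count did not follow model length alone, with medians over libraries of 0.220 for Trbv20 (335 bases) and 0.104 for Trbv31 (334 bases). The cause was not tested. The comparisons between V genes above are per length, in TPM.

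**Figure D2:**
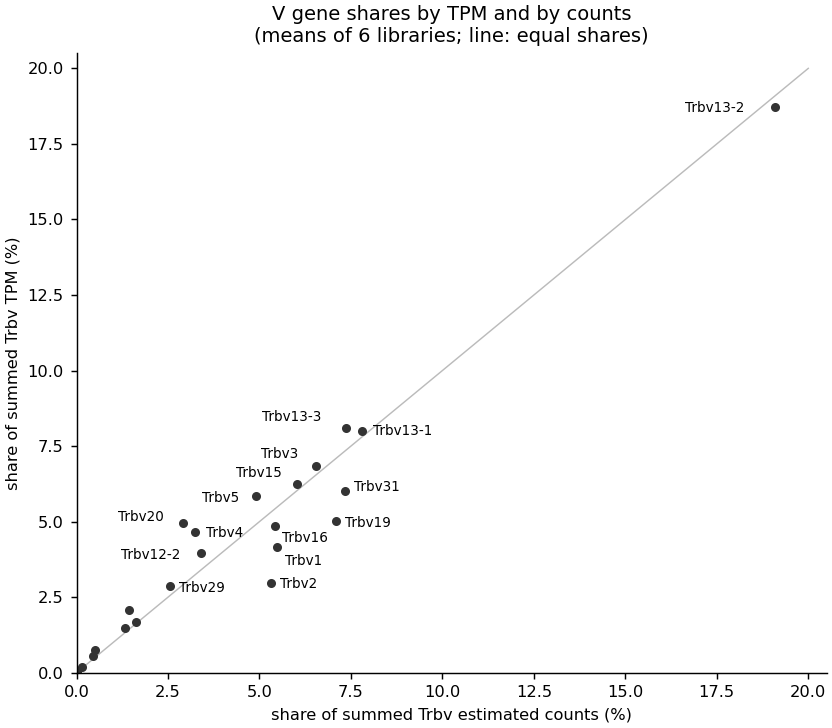
Mean share of each V gene over the 6 libraries in the summed V estimated counts (horizontal axis, percent) and in the summed V TPM (vertical axis, percent), with a line where both are equal. Trbv20 lies above the line (2.92% of counts, 4.96% of TPM) and Trbv2 below it (5.32% of counts, 2.97% of TPM), while Trbv13-2 lies close to it.

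Libraries of a group did not have the same V counts within sampling noise. Between libraries of the same group the chi-square statistic per degree of freedom over the 21 tested V genes was 3.81 to 8.38, where sampling noise alone gives about 1. Over the 2911 tested genes with at least 10 counts in every library it was 15.9 to 39.7. The statistic depends on the level of counts, so the ranges over V genes and over these genes are not like measures. Between libraries of different groups with the same number it was 5.05 to 6.85 over V genes and 14.6 to 27.1 over those 2911 genes. The part of the V share that would have to move between genes to turn a library into another was 3.90 to 6.11% within a group and 4.62 to 6.27% between same-numbered libraries of different groups. Between libraries of different groups and different numbers, the statistic was 4.79 to 9.01 over V genes and the part moved was 4.24 to 6.53%. The highest of these lay above every value within a group, though the ranges overlapped. Vehicle and tunicamycin libraries were thus about as far apart in V use as libraries of the same group were from each other. Over the 1904 genes averaging 5 or more on the log2 scale of CPM, that is counts scaled to a common library size, every library's deviations from its group mean correlated best with those of the library of the same number (0.303 to 0.316). Over the 21 V genes this held for 3 of 6 libraries, with same-number correlations from -0.230 to 0.590, a description across genes that are not independent.

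The 20 V genes upstream of Trbd1 that passed the filter lay 251 to 641 kb from it, and those of them with a mean share of at least 5% lay between Trbv19 at 354 kb and Trbv3 at 484 kb. Their mean share and this distance had a Spearman coefficient of 0.408 and a Pearson coefficient of 0.263 over 20 genes, which share libraries and depth. The lowest shares in this set, of Trbv30 (0.193%), Trbv23 (0.540%) and Trbv24 (0.760%), belonged to genes among the 4 nearest to Trbd1, along with Trbv29 (2.87%). Trbv1, the farthest, took 4.16%. GC content of the V models, 41.8 to 53.9%, had a Spearman coefficient of 0.222 with the mean share over 21 genes.

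Across all genes tested, 0 of 22 beta locus genes were called higher or lower at an adjusted p under 0.05 in edgeR. Of all 3613 genes 2 were called higher (0.0554%) and 1 lower (0.0277%), together 0.083%. The genes called higher were Nnt and Rps12l1, both at 0 counts in every vehicle library, and the gene called lower was Ccng1. Fitted with the replicate number as a block, 14 genes were called higher and 22 lower in place of 2 and 1, and again 0 members were called. Limma called 0 members, as did DESeq2, whose independent filtering gave an adjusted p to 2 of the 22. Without that filtering, an alternative chosen after seeing the data, each of the 22 had one and 0 were called. At an unadjusted p under 0.05 in edgeR there was 1 member, Trbv13-1 (6.42% of all genes). By the same measure DESeq2 gave 1 member (6.42% of all genes), limma on log2(TPM + 1) 3 (7.78%) and the block 2 (10.7%). The log2 fold change of Trbv13-1, tunicamycin against vehicle, was -0.26 with an SE of 0.09 (95% interval -0.46 to -0.06; edgeR adjusted p = 0.59). Its adjusted p was 0.21 to 1.00 over the alternatives that gave one, with none in DESeq2 under independent filtering.

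The 3 members of the Trbv13 family had log2 fold changes of -0.26 (Trbv13-1), -0.05 (Trbv13-2) and -0.10 (Trbv13-3). Trbv12-1 was at 0.28 (95% interval -0.14 to 0.70) and Trbv24 at 0.60 (95% interval -0.37 to 1.57). Trbv31 was at -0.15, Trbv29 at -0.24 and Trbv14 at -0.27. Of the 21 V genes 15 lay below 0, with a median of -0.05, while 49.9% of all genes tested lay below 0 with a median of 0.00. The 95% interval of 18 V genes and of Trbc2 lay within a 2-fold change in either direction. The exceptions were Trbv23, Trbv24 and Trbv30, the tested genes of fewest counts. A 2-fold fall lay within the intervals of Trbv23 and Trbv30, and a 2-fold rise within that of Trbv24.

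**Figure D3:**
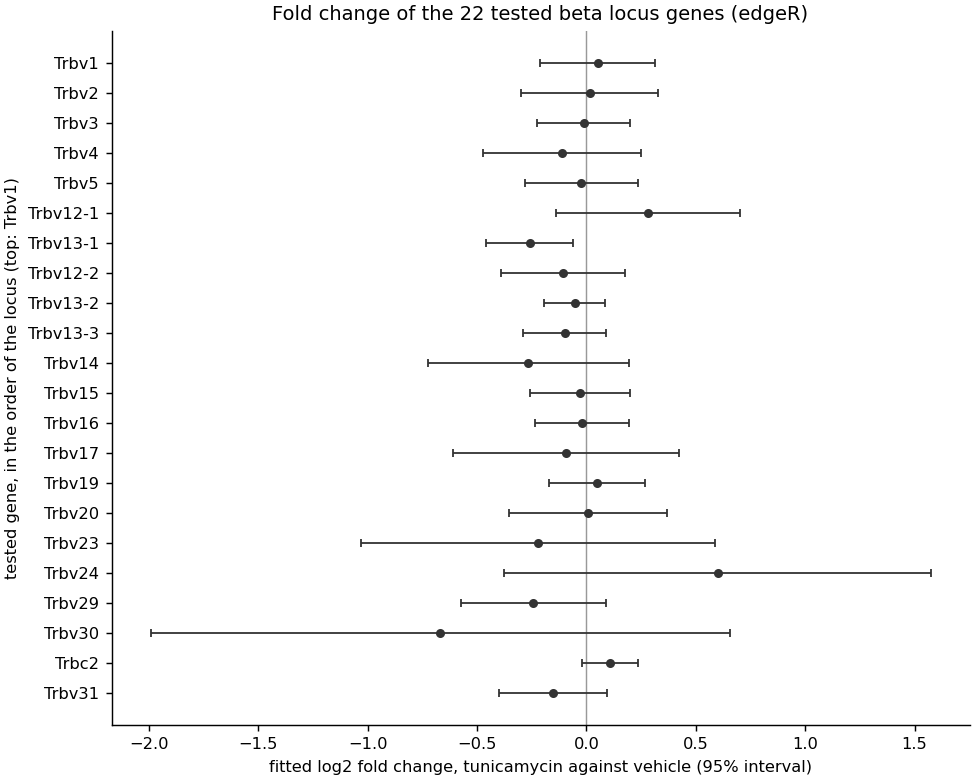
Fitted edgeR log2 fold change, tunicamycin against vehicle (horizontal axis), of the 22 tested beta locus genes in their order along the locus, with 95% intervals. The interval of Trbv13-1 (-0.46 to -0.06) lies below 0 before adjustment over all genes, and those of Trbv23, Trbv24 and Trbv30 alone reach past a 2-fold change.

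The summed level of all V rows was 2162, 2044 and 2022 TPM in vehicle replicates 1, 2 and 3 and 2057, 1890 and 1927 TPM in tunicamycin replicates 1, 2 and 3. It was lower in the tunicamycin library of each number, but the groups overlapped, at 2076 ± 75.7 against 1958 ± 87.5 TPM (SD, n = 3 each; log2 difference -0.08, exact permutation test, p = 0.3). Trbc2, the constant gene at chr6:41546730-41548352 that encodes the part of the beta chain shared by all cells that use it, was at 1437, 1371 and 1338 TPM in vehicle and at 1578, 1453 and 1428 TPM in tunicamycin. It was higher in the tunicamycin library of each number, with overlapping groups, at 1382 ± 50.4 against 1486 ± 80.1 TPM (SD, n = 3 each; log2 difference 0.10, exact permutation test, p = 0.2). In CPM scaled by TMM factors, which adjust for library composition, the Trbc2 groups did not overlap, at 2721 ± 61.4 against 2932 ± 172 (SD, n = 3 each; exact permutation test, p = 0.1), as was the case for 6.62% of all genes tested in this direction. In edgeR its log2 fold change was 0.11 (95% interval -0.02 to 0.24; adjusted p = 0.84, and 0.30 with the replicate block).

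The mean V and C levels thus differed in opposite directions, and their ratio was computed after these values had been seen. The summed V TPM divided by the Trbc2 TPM was 1.50, 1.49 and 1.51 in vehicle replicates 1, 2 and 3 and 1.30, 1.30 and 1.35 in tunicamycin replicates 1, 2 and 3. Each tunicamycin library lay below each vehicle library, at 1.50 ± 0.0105 against 1.32 ± 0.0272 (SD, n = 3 each; log2 difference -0.19; exact permutation test, p = 0.1, the smallest possible). In estimated counts the ratio was 0.592, 0.579 and 0.588 in vehicle and 0.515, 0.518 and 0.532 in tunicamycin, again without overlap. Without the Trbv13 rows the log2 difference was -0.17, and leaving out each library in turn gave -0.21 to -0.18.

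Most V genes lay lower against Trbc2 when taken singly. Relative to Trbc2 TPM, 18 of 21 tested V genes had a lower mean in tunicamycin. Of these, 9 had groups that did not overlap, against 9.05% of all genes tested that were lower without overlap relative to Trbc2. They were Trbv5, Trbv12-2, Trbv13-1, Trbv13-2, Trbv13-3, Trbv14, Trbv29, Trbv30 and Trbv31. In counts relative to Trbc2 counts, 7 V genes were lower without overlap, against 17.5% of all genes, and Trbv12-1 was higher without overlap (log2 difference 0.18). The 21 ratios share the Trbc2 value of each library as their denominator and are not independent of each other.

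**Figure D4:**
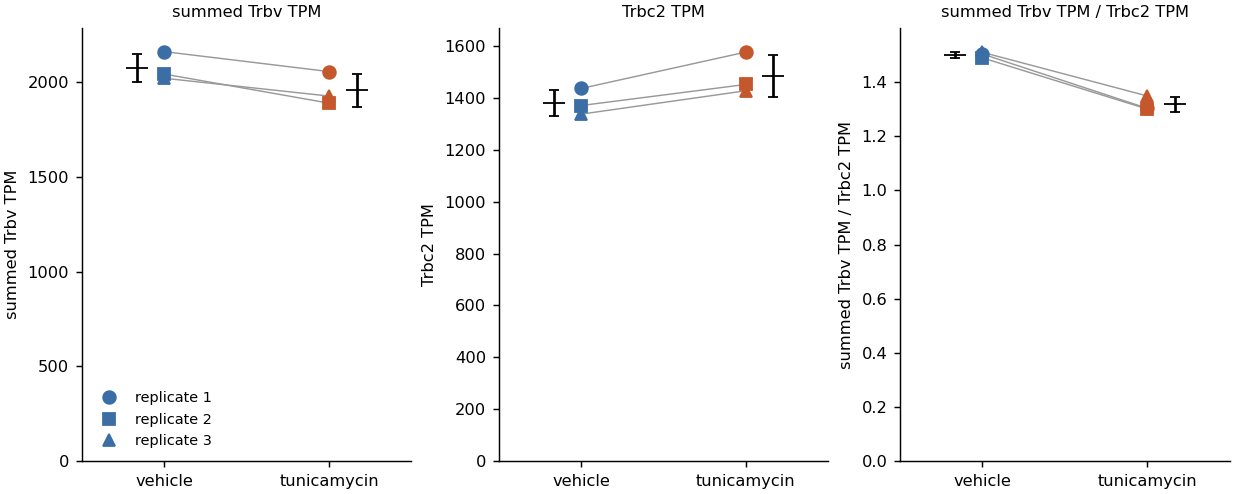
Summed Trbv TPM, Trbc2 TPM and their ratio (vertical axes, from 0) per library, with lines joining libraries of the same replicate number and black bars for the mean and 1 SD (n = 3 per group). The V level is lower and the Trbc2 level higher at the tunicamycin end of each line, with overlapping groups, and the ratio stands at 1.49 to 1.51 in vehicle and 1.30 to 1.35 in tunicamycin.

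Set against other receptor genes, the outcome differed with the reference. Relative to Cd3d, a subunit of the CD3 signalling complex, the summed V level was 8.87 ± 0.280 in vehicle and 8.11 ± 0.330 in tunicamycin without overlap, while Trbc2 overlapped (SD, n = 3 each). Relative to Cd3e, another CD3 subunit, the summed V level was 3.42 ± 0.121 and 3.44 ± 0.213 with overlap, while Trbc2 was at 2.28 ± 0.0647 and 2.61 ± 0.150 without overlap (SD, n = 3 each). The V to Trbc2 ratio needs neither reference, but cannot show which side moved.

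Several library properties also separated the groups without overlap. Summed counts were higher in each tunicamycin library, and the summed TPM of all rows was lower, 319120 to 330627 against 331373 to 332870. The summed level of the NK cell markers with a row (5 of 7) was 9.03 to 11.3 TPM in vehicle and 11.8 to 16.6 TPM in tunicamycin, with Ncr1 at 0 in 1 vehicle library and Klra8 at 0 in 2. The part of these in the ratio was not tested. Trbc1, the other constant gene, was not analysed here, and is 96.2% identical to Trbc2 over the first 500 bases of their models, with 48.5% of the 31-base stretches of Trbc2 also found in Trbc1. The deposited Trbc2 counts were fractional in 6 of 6 libraries (a tolerance of 0.001), as were 65 of 132 V values. Trbv4, Trbv5 and Trbv31 were also fractional in 6 of 6 libraries, and share 0 stretches of 31 bases with another V segment. The division of reads between Trbc1 and Trbc2 was not tested. Invariant NKT cell markers (3 of 4 with a row) were at 6.50 to 9.41 TPM in vehicle and 3.55 to 13.6 TPM in tunicamycin. Of these Zbtb16, a transcription factor of innate-like T cells, separated the groups as the ratio did. It was at 0.472 to 0.664 TPM in vehicle and 0.711 to 1.94 TPM in tunicamycin. Its log2 fold change was 1.37 (95% interval 0.56 to 2.17, edgeR adjusted p = 0.40). The other markers with a row, Trav11 and Trav11d, did not separate the groups. Trav11 was at 0 in vehicle replicate 1 and tunicamycin replicate 3 (log2 fold change -0.16, 95% interval -4.74 to 4.43). Trav11d was above 0 in those libraries only. The part of Zbtb16 in the ratio was not tested. The gamma-delta T cell markers (2 of 8) were at 2.37 to 7.16 and 2.51 to 7.01 TPM.

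The J segments gave high TPM from few reads. Of 14 J rows 12 were above 0 in at least 1 library, and 0 were above 0 in all 6. Trbj1-7 and the pseudogene Trbj2-6 were at 0 throughout. The 3 J rows with values in the most libraries, 3 each, are shown to give an idea of their length. Capitals mark TTTGG, which covers the conserved phenylalanine codon of the joining segment and was in 8 of 14 annotated J segments (57.1%), with 0 holding the reverse complement CCAAA. The first lies at chr6:41534323-41534372, the second at chr6:41542957-41543007 and the third at chr6:41543362-41543410, on the plus strand.
Trbj1-3: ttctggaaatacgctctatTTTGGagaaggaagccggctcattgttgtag
Trbj2-2: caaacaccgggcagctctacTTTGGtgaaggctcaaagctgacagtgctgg
Trbj2-4: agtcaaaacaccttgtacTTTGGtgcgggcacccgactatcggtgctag
Trbd1: gggacagggggc
The last of these is the first D segment (chr6:41533201-41533212), which had a row, as did Trbd2. Both were at 0 in every library.

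Trbj1-3 had 14 estimated counts in vehicle replicate 1, 1 in tunicamycin replicate 1 and 17 in tunicamycin replicate 3, and 0 in the other libraries. Trbj2-2 had 12, 0 and 6 counts in vehicle and 0, 15 and 0 in tunicamycin. Trbj2-4 had 13, 0 and 0 counts in vehicle and 0, 1 and 1 in tunicamycin. No order of libraries or groups was shared by these rows. Trbj1-6 had 11 counts in vehicle replicate 3 and 6 in tunicamycin replicate 1, and Trbj2-7 had 10 and 5 in the same libraries. Trbj1-2 had 1 count in vehicle replicate 1 and 13 in tunicamycin replicate 3, and Trbj2-1 had 1 in vehicle replicate 2 and 7 in tunicamycin replicate 3. Each was at 0 elsewhere. Trbj1-4 had 12 counts in vehicle replicate 1 and 1 in vehicle replicate 3, and Trbj1-5 had 2 in vehicle replicate 1 and 4 in vehicle replicate 2. Trbj1-1 had 5 counts in vehicle replicate 2 and 4 in tunicamycin replicate 1, Trbj2-3 had 8 and 2 in tunicamycin replicates 2 and 3, and Trbj2-5 had 1 in tunicamycin replicate 1.

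Of 84 J values 58 were 0, and the highest was 17 counts, so no J row passed the filter on low counts. Together the J rows had 54, 10 and 28 counts in vehicle and 17, 24 and 40 in tunicamycin, 0.0870 to 0.444% of the counts of the V rows. The same rows had 113 to 588 TPM in all, 5.54 to 27.2% of the summed V TPM. A single count added 5.70 to 13.4 TPM (median 9.20) in a J row, against a median of 0.141 TPM in V rows and 0.0502 TPM in Trbc2. The annotated J segments are 45 to 53 bases long, shorter than a 150 bp read. Their TPM can therefore not be read as the use of J segments, and no share of J use is given.

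**Figure D5:**
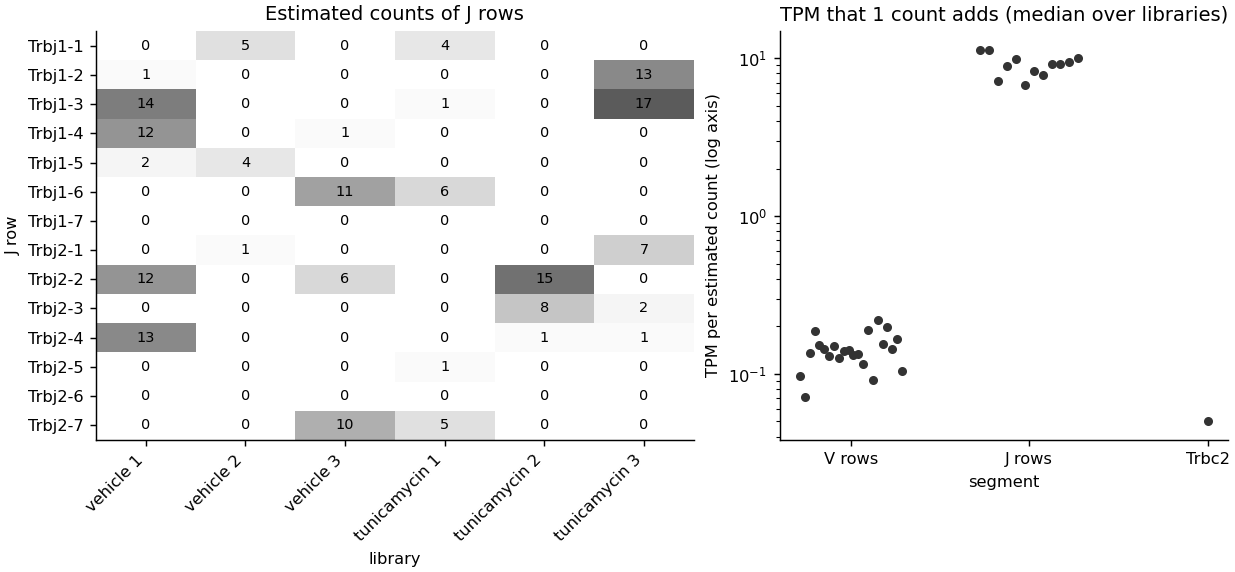
Left, estimated counts of the 14 J rows (vertical axis) in each library (horizontal axis), with the number in each cell. Right, the TPM that 1 estimated count adds (vertical axis, log scale) for each V row, J row and Trbc2 as the median over libraries. Most cells are 0, the highest is 17, and the median is 9.20 TPM per count in J rows and 0.141 in V rows.

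Other genes of the receptor and of its assembly were compared for context. Of 8 genes listed for the receptor complex 3 had a row, Trbc2, Cd3d and Cd3e, and 0 were called. Cd3d had a log2 fold change of 0.03 and Cd3e of -0.13 (95% interval -0.25 to -0.01; edgeR adjusted p = 0.68). Of 22 proximal signalling genes 3 had a row, the adaptor Lat at 0.02, the inhibitory kinase Csk at -0.04 and the inhibitory surface receptor Cd5 at -0.03, and 0 were called. The direction of Csk and Cd5 turned in limma on log2(TPM + 1), to 0.17 and 0.04. Of 12 genes of V(D)J recombination and end joining 5 had a row and 0 of the 3 tested were called. Rag1, which encodes a subunit of the recombinase, was at 0 in all 6 libraries, and Rag2, the other, had 2 counts in 1 library. Prkdc, the DNA-dependent protein kinase of end joining, was at 0.31 (95% interval 0.09 to 0.52; edgeR adjusted p = 0.52). Poll and Nhej1 were both at 0.15. Of 14 listed regulators of the locus 0 had a row, so none was analysed here.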

How the data were processed

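Messenger RNA was sequenced in 6 libraries, 3 per group. Estimated counts and TPM per gene were made and deposited by the authors. Tools listed in the submitters' processing notes are Salmon, bcl2fastq and DESeq2, without versions, and the build listed is GRCm39. For the annotation, any filter and which tool made which table, nothing is given in the sources used. The deposited estimated counts are partly fractional and were rounded to whole numbers for count models. The deposited TPM of the rows analysed summed to 319120 to 332870 per library, so they cover part of the transcriptome. Of 13685 rows, 6932 were at 0 in every library and 13627 identifiers matched a symbol.

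Tunicamycin was compared with vehicle over all 3613 genes left by filterByExpr, with edgeR 4.0.16 (TMM, robust quasi-likelihood F test, Benjamini-Hochberg adjustment over these genes, threshold 0.05). Shares, sums and ratios per library were compared by exact 2-sided permutation tests. DESeq2 1.42.0, limma 3.58.1 on log2(TPM + 1) and log2(TPM + 0.1), DESeq2 size factors, no filter, no robust estimation, a replicate block, shares of counts, V rows without pseudogenes and each library left out were tried as alternatives, and those for the ratio of V to Trbc2, and DESeq2 without independent filtering, were chosen after seeing the data. The code was tested on simulated data.

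Replicate numbers come from the sample titles. Libraries of the same number deviated together (correlations of 0.303 to 0.316 over 1904 genes, all above the limit of 0.1). The numbers were therefore taken to pair the libraries in the replicate block and in comparisons within numbers. The main edgeR fit and the exact permutation tests did not use this pairing. Named with values per library are the 10 V genes of highest mean share, each V gene of at least 1% whose groups do not overlap, each J and C row above 0 and each called member, and V pseudogenes and V genes at 0 as groups. For the receptor complex and signalling lists, called genes or up to 4 of the highest mean are named. The members and lists were chosen with earlier results of these data known. Sequences and coordinates are from GENCODE M21 on GRCm38, which differs from the authors' build, so they serve for identity only. Older names are from RefSeq.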

Additional observations from a re-analysis of the deposited data

How the results depend on the processing

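None of the alternatives run called a beta locus gene, though DESeq2 with independent filtering gave an adjusted p to only 2 of 22. The lower V level, the higher Trbc2 level and the lower ratio of V to Trbc2 kept their direction in each alternative run, the ratio with a log2 difference of -0.21 to -0.17. The counts over all genes moved. Called higher were 2 genes, against 10 without the filter on low counts, 4 in DESeq2, 12 in DESeq2 without independent filtering (chosen after seeing the data), 1 in limma on log2(TPM + 1), 14 with the replicate block and 1 to 4 with each library left out. Called lower was 1 gene, against 2 with DESeq2 size factors, 6 without the filter, 16 in DESeq2, 11 in DESeq2 without independent filtering, 0 in limma on log2(TPM + 1) and on log2(TPM + 0.1), 22 with the replicate block, 0 without robust estimation and 0 to 1 with each library left out. The V shares without overlap numbered 3, and 8 lay on the same side in each pair with the replicate block. They numbered 4 to 11 with each library left out, 11 without vehicle replicate 3. The cause was not tested. The log2 difference of the effective number of V genes was 0.0042, -0.0094 without pseudogenes and -0.0063 to 0.0239 with each library left out, all near 0.

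Log2 fold changes near 0 changed sign. With each library left out they ran from -0.0589 to 0.0616 for Trbv3, -0.126 to 0.0190 for Trbv15, -0.115 to 0.0631 for Trbv5, -0.0230 to 0.144 for Trbv19, -0.0727 to 0.155 for Trbv20, -0.0791 to 0.0235 for Trbv16, -0.0204 to 0.0384 for Lat, -0.0811 to 0.00874 for Csk and -0.0792 to 0.480 for Nhej1. Trbv20 was at -0.0011 with the replicate block. In limma on log2(TPM + 1) and on log2(TPM + 0.1), Csk was at 0.171 and 0.172 and Cd5 at 0.0444 and 0.0447. The cause was not tested. The block changed no call of a member. The 95% intervals of the log2 fold change reached -1.03 for Trbv23, 1.57 for Trbv24 and -1.99 for Trbv30, and the exact tests of 3 against 3 libraries cannot go below 0.1.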
